A study of Mus musculus with 9 samples.

Results

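The proteasome genes described here were all genes on the array whose symbol begins with Psma, Psmb, Psmc, Psmd, Psme, Psmf or Psmg followed by a digit and whose row carried that symbol alone. The choice of genes rested on the symbol and not on a measured value, but was made with earlier results of these data known. It gave 50 of the 19938 genes with a row of their own. They were 19 subunits of the core particle, 17 of the regulatory particle, 7 assembly chaperones, 5 activators or inhibitors of the core and 2 genes that share the symbol stem without being subunits, Psmc3ip and Psme3ip1.

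Expression was measured in 9 single mouse oocytes, each on an Affymetrix Mouse Gene 1.0 ST array, which reads probes along whole transcripts. The 3 preparations, with 3 oocytes each, were a crude lysate made in NuGEN direct lysis buffer (direct lysis), RNA purified with the Arcturus PicoPure kit and RNA purified with the Qiagen RNeasy Mini kit. All oocytes came from non-mated females of the outbred ICR strain aged 2 months primed with the gonadotropins PMSG (10 IU) and hCG (10 IU, after 46 hours), which bring oocytes to metaphase II, and every sample was amplified with the NuGEN One-Direct chemistry. Between 1 and 3 cells came from each of 3 mice per condition, and the labels do not tie an oocyte to a mouse, so a p-value reflects only the variation among these cells, which are not known to come from separate animals.

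The proteasome is the protease that destroys proteins marked with ubiquitin. Its barrel-shaped core has outer rings of alpha subunits, which gate the entry, and inner rings of beta subunits, some of which carry the catalytic sites. The regulatory particle on its end binds ubiquitin chains in its lid and base, removes them, and unfolds the substrate with a ring of ATPases. In the mature oocyte the protease is known for destroying cyclin B and securin when the egg leaves metaphase II, and maternal proteins after fertilization.

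Values are the authors' normalized log2 expression values. The background level of an array was set from 1233 chemosensory receptor genes (olfactory, vomeronasal, taste), as the 95th percentile of their values. It lay between 7.23 and 7.29 with direct lysis, 7.19 and 7.26 with PicoPure and 7.26 and 7.47 with RNeasy. All 10 oocyte markers lay above background on all 9 arrays. Of 13 cumulus and granulosa cell markers, 2 did so (Foxl2 and Nr5a2), of 11 blood and immune markers 2 (H2-Aa and Cd3e) and of 5 oviduct markers 0. In these 3 lists, 6, 8 and 3 markers were above it on no array. H2-Aa ranged from 7.89 to 10.61 over the oocytes and Cd3e from 7.45 to 7.62. RNeasy oocyte 3 stood apart in the cumulus list, since Inhba (8.48), Tnfaip6 (8.39) and Ptgs2 (7.56) were above background there and on no other array. Its part in the results was not tested, and values without it are given for only some of them. No marker of these 4 lists was called between preparations (limma, adjusted p under 0.05). Each row has its own probes, so levels are not compared between genes.

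Most of the proteasome was detected in every single oocyte. Of the 50 genes, 41 lay above background on all 9 arrays, a share of 82%, where 43.1% of all genes did so. A further 3 were above it on some arrays and 6 on none. Per array the number detected was 43, 43 and 44 with direct lysis, 44, 43 and 43 with PicoPure and 42, 44 and 41 with RNeasy. The lowest count (41) and the highest (44) both occurred among the RNeasy oocytes, and direct lysis and PicoPure also reached 44.

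**Figure D1:**
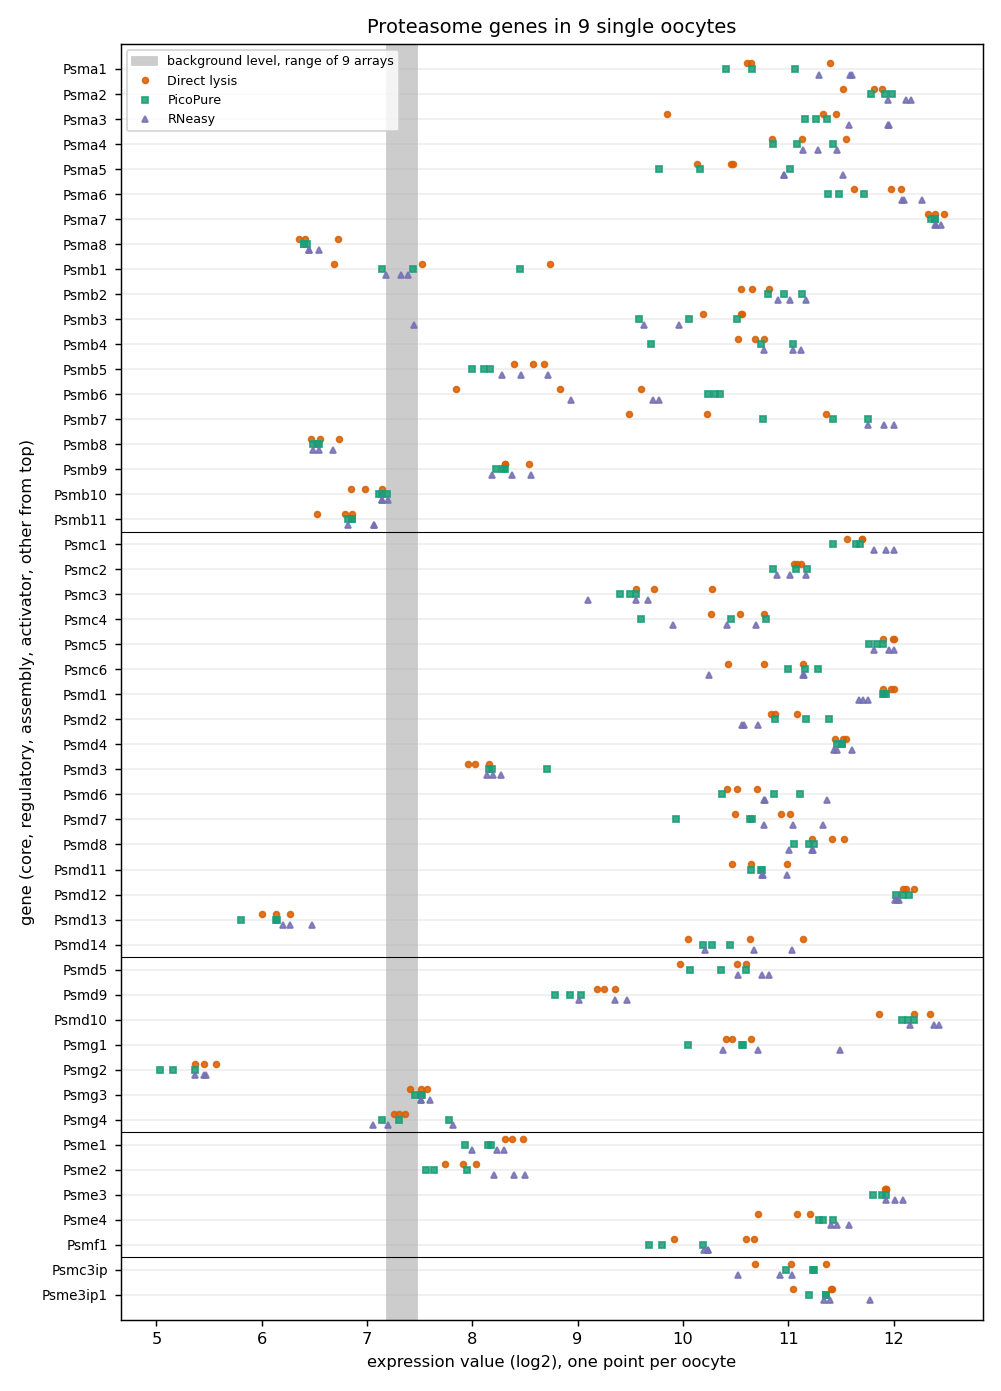
Expression values (log2) of the 50 genes in 9 oocytes, 1 point per oocyte, with direct lysis as circles, PicoPure as squares and RNeasy as triangles. The grey band spans the background levels of the arrays (7.19 to 7.47), and 41 genes have all their points above the level of the array concerned.

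All 7 standard alpha ring genes, Psma1 to Psma7, were above background on every array. Psma7 was the steadiest gene of the family, with 12.48, 12.39 and 12.33 with direct lysis, 12.39, 12.35 and 12.40 with PicoPure and 12.39, 12.40 and 12.45 with RNeasy (SD over 9 oocytes 0.05). Psma8 encodes an alpha subunit of meiotic male germ cells that can take the place of Psma7. It lay between 6.35 and 6.72 over all 9 oocytes and was above background on none.

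The beta ring was read less evenly. Psmb2 and Psmb4, noncatalytic subunits, were above background on all arrays, with means over 9 oocytes of 10.89 and 10.71. Psmb3, another noncatalytic subunit, was above it on 8 arrays. Psmb1, also noncatalytic, was above it on 5, with 6.69, 7.52 and 8.74 with direct lysis, 7.44, 8.45 and 7.14 with PicoPure and 7.18, 7.39 and 7.32 with RNeasy. The 3 preparations overlapped fully for Psmb1, and the spread within direct lysis (SD 1.03, n = 3) exceeded the differences between group means.

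Psmb5, Psmb6 and Psmb7, which carry the chymotrypsin-like, caspase-like and trypsin-like sites, were above background in all 9 oocytes. Their interferon-inducible counterparts in the immunoproteasome are Psmb8, Psmb9 and Psmb10. Psmb8 lay between 6.46 and 6.74 and Psmb10 between 6.85 and 7.20, and both were above background on no array. Psmb9 was above it on all 9, with 8.31, 8.31 and 8.54 with direct lysis, 8.22, 8.31 and 8.29 with PicoPure and 8.37, 8.19 and 8.55 with RNeasy. Psmb11, the thymic catalytic subunit, lay between 6.52 and 7.07 and was above background on none.

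In the regulatory particle, 16 of 17 genes were above background on all arrays. They include all 6 ATPases, Psmc1 to Psmc6, whose means over 9 oocytes ran from 9.59 (Psmc3) to 11.91 (Psmc5), and the base scaffolds Psmd1 and Psmd2. Psmd4, the ubiquitin receptor of the base, had 11.54, 11.45 and 11.52 with direct lysis, 11.51, 11.46 and 11.51 with PicoPure and 11.61, 11.44 and 11.46 with RNeasy, and its SD over 9 oocytes was 0.06. Psmd14, the deubiquitinase of the lid, ranged more widely, with 11.14, 10.64 and 10.05 with direct lysis, 10.19, 10.27 and 10.45 with PicoPure and 10.21, 11.03 and 10.67 with RNeasy. The lid subunit Psmd13 was the exception, between 5.80 and 6.48 and above background on no array. A gene not above background has no level that can be read here, which does not show that its RNA is absent.

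Among the assembly chaperones, Psmd5, Psmd9 and Psmd10, which help to build the base, and Psmg1 and Psmg3, which help to build the core, were above background on all arrays. Psmg3 stayed close above it, with 7.51, 7.41 and 7.57 with direct lysis, 7.46, 7.51 and 7.52 with PicoPure and 7.59, 7.51 and 7.51 with RNeasy. Psmg1 ranged from 10.05 in a PicoPure oocyte to 11.49 in an RNeasy oocyte. Psmg2, the partner of Psmg1, lay between 5.03 and 5.56 and was above background on none. Psmg4, the partner of Psmg3, was above it on 5 arrays, with 7.36, 7.25 and 7.31 with direct lysis, 7.78, 7.14 and 7.31 with PicoPure and 7.06, 7.82 and 7.20 with RNeasy.

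The 5 activator and inhibitor genes were all above background in every oocyte. Psme1 and Psme2, which form the interferon-inducible activator ring, had means over 9 oocytes of 8.22 and 7.99. Psme3, the nuclear activator, had 11.91, 11.93 and 11.93 with direct lysis, 11.89, 11.80 and 11.93 with PicoPure and 11.93, 12.09 and 12.01 with RNeasy. Psme4, the large activator known for work on acetylated histones in male germ cells, averaged 11.28. Psmf1, first known as an inhibitor of the core, averaged 10.17.

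Promoters are printed for 4 of the genes described below, none of which was called, to show which short motifs lie at their starts. The 4 were not chosen by a rule, and Psmb7 and Psme2, also described below, are not shown. Psmb5, Psmb6 and Psme4 are among the 6 genes with the antioxidant response element, so the 4 do not stand for the family. Sequences are from RefSeq (GRCm38.p6) and run from 250 bases before to 50 after an annotated start, 5′ to 3′ on the gene's strand. Promoters matched 42 of the 50 genes, with 46 starts. Capitals mark the antioxidant response element (TGACNNNGC), through which Nfe2l1 is known to raise proteasome genes, the Ets motif (CCGGAAG) and the CCAAT box (CCAAT), each searched on both strands. No marked matches overlap in these windows.
Psmb5 (chr14:54617946-54618245, minus strand): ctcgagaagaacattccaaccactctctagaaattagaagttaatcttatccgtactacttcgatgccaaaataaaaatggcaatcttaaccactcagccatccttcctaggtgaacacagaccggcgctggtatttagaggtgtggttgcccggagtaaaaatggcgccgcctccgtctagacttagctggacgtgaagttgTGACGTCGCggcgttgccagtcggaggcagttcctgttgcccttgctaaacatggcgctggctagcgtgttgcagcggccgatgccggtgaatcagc
Psmb6 (chr11:70525107-70525406, plus strand): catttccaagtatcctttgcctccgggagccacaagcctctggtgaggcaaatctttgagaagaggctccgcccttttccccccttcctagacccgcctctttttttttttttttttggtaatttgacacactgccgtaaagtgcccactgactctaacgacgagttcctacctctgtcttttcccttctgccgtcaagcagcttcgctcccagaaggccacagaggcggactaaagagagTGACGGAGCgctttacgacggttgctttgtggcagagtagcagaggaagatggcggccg
Psme4 (chr11:30771525-30771824, plus strand): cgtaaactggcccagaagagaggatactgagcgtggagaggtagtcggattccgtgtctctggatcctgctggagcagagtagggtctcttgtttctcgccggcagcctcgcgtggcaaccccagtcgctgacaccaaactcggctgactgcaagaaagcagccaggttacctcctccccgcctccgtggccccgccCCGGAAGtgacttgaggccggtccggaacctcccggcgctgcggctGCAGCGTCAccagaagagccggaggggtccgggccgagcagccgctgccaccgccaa
Psma6 (chr12:55398575-55398874, plus strand): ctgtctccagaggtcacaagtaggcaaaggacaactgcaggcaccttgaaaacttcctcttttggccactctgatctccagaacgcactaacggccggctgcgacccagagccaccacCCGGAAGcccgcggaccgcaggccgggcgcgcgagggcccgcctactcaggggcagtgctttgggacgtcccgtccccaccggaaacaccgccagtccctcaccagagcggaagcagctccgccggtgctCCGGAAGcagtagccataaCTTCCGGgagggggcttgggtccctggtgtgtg

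The antioxidant response element was found at 6 of 46 member starts (13%), those of Psmb5, Psmb6, Psmc6, Psmd9, Psmd12 and Psme4, against 12.4% of all 32851 promoters of the same length. For genes above background on all 9 arrays the share was 14.3%. The Ets motif stood at 17 of the 46 (37%), against 8.86% of all promoters and 16.8% of those of detected genes. Psma6 held 3 copies at the start shown and 0 at its other start, which had 2 CCAAT boxes. CCAAT was found at 16 of the 46 (34.8%), against 37.4% of all promoters. A match is a string of letters and not a shown binding site.

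Direct lysis was compared with purified RNA to ask whether skipping the column changes what is read from 1 cell. No proteasome gene was called in either direction (limma, 0 of 50 genes, smallest adjusted p = 0.149), where 1.01% of all 19938 genes were called, 0.667% lower and 0.341% higher with direct lysis. At an unadjusted p under 0.05, 5 genes (10%) were lower and 4 (8%) higher with direct lysis, beside 7.01% and 7.18% of all genes. All 9 were above background on every array, where 10.4% of genes were lower and 6.14% higher at that p. Of the 41 proteasome genes detected on every array, these were 12.2% lower and 9.76% higher. In both directions together they were 22% of the 41, beside 16.5% of all detected genes. Whether these shares differ was not tested. The median difference was -0.02 log2 units over the 50 genes and 0.002 over all genes. It was below 0 for 26 genes (52%) and above for 24 (48%), beside 49.4% and 50.6% of all genes. Direct lysis and purified RNA did not overlap for 1 gene lower (2%, Psme4) and 1 higher (2%, Psme1), beside 3.72% and 4.31% of all genes. In simulated data with each gene's own spread, 74% of genes changed by 1 log2 unit were called in this comparison and 92.5% of those changed by 2. The changed genes were drawn from all 19938, whose median SD within preparations was 0.152. That SD was 0.621 for Psmb7 and 0.576 for Psmb6, so the shares do not apply to genes of such spread.

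**Figure D2:**
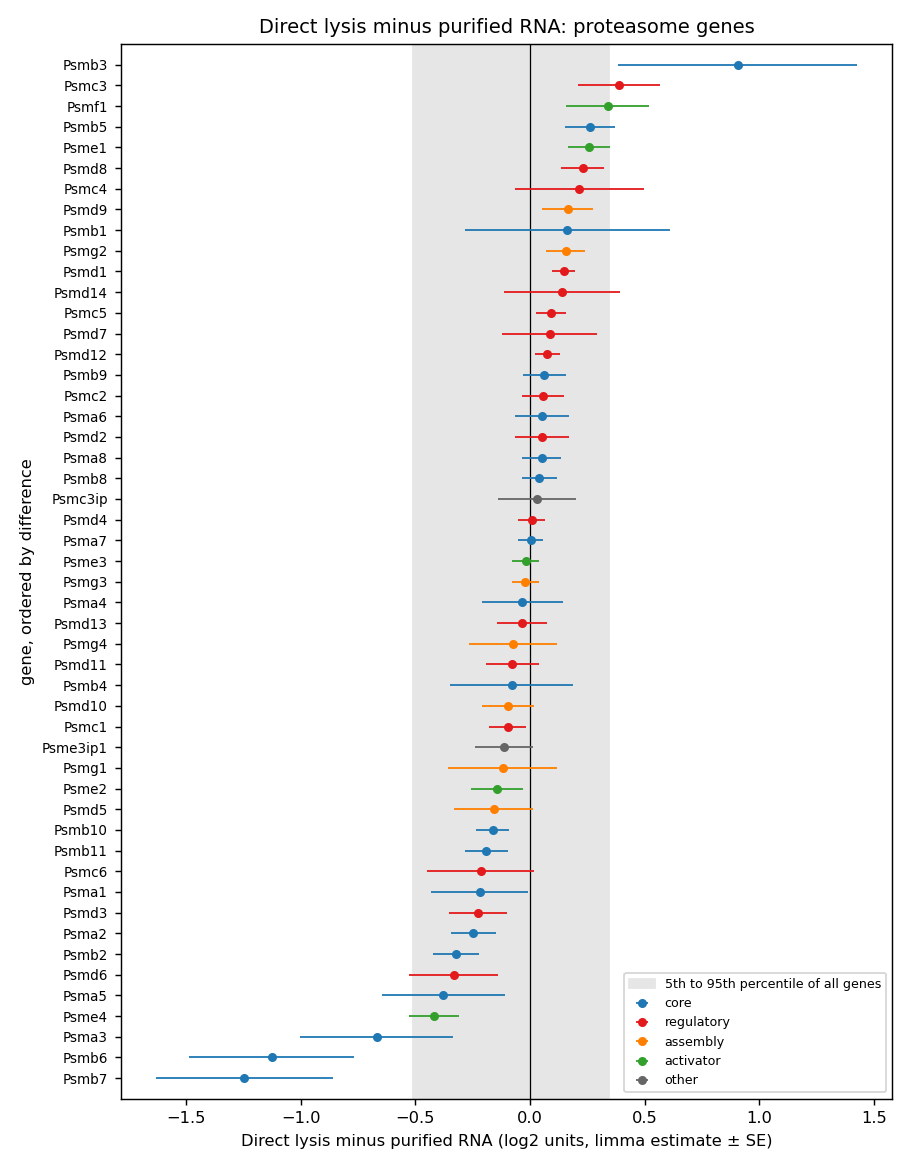
Difference between direct lysis (3 oocytes) and purified RNA (6 oocytes) for each gene in log2 units, with bars for the SE of the limma estimate and colours for the part of the proteasome. The grey band holds the 5th to 95th percentile of all genes (-0.51 to 0.35), and the differences run from -1.25 (Psmb7) to 0.91 (Psmb3).

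Psme4 had the smallest p. It had 11.08, 10.71 and 11.21 with direct lysis, against 11.33, 11.43 and 11.29 with PicoPure and 11.40, 11.58 and 11.47 with RNeasy, so each crude lysate lay below each purified sample. The difference was -0.42 ± 0.11 (SE), with an adjusted p of 0.149 by limma that did not pass, and it was -0.27 without direct lysis oocyte 2. Psme1 had 8.48, 8.31 and 8.38 with direct lysis, against 7.93, 8.18 and 8.15 with PicoPure and 8.23, 8.00 and 8.30 with RNeasy. Every crude lysate was above every purified sample, although 8.31 and 8.30 nearly touched, and the difference was 0.26 ± 0.09 (limma, adjusted p = 0.271).

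The largest differences for direct lysis belonged to the catalytic subunits Psmb7 and Psmb6. Psmb7 had 10.22, 11.36 and 9.49 with direct lysis, against 11.42, 10.76 and 11.76 with PicoPure and 12.00, 11.76 and 11.91 with RNeasy. The crude lysates had an SD of 0.94 and overlapped PicoPure but no RNeasy sample, and the difference was -1.25 ± 0.39 (2.37-fold lower, limma, adjusted p = 0.214), or -0.81 without direct lysis oocyte 3. Psmb6 had 8.83, 7.84 and 9.60 with direct lysis, against 10.36, 10.23 and 10.31 with PicoPure and 9.71, 9.77 and 8.94 with RNeasy. Its crude lysates lay below all PicoPure samples and overlapped RNeasy, with a difference of -1.13 ± 0.36 (2.18-fold lower, limma, adjusted p = 0.223), or -0.67 without direct lysis oocyte 2. The order of the crude lysates was not shared, since oocyte 3 was the lowest for Psmb7 and the highest for Psmb6. RefSeq lists 2 pseudogenes each for Psmb6 and Psmb7, so their rows may share signal with near copies.

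RefSeq lists 1 pseudogene for Psmb5 too, and the gene differed from Psmb6 and Psmb7 in sign. It had 8.58, 8.68 and 8.40 with direct lysis, against 8.00, 8.11 and 8.17 with PicoPure and 8.46, 8.71 and 8.28 with RNeasy. The crude lysates lay above all PicoPure samples and within the RNeasy range, and the difference from purified RNA was 0.26 ± 0.11 (limma, adjusted p = 0.328). Psmb2 had 10.65, 10.81 and 10.55 with direct lysis, against 11.13, 10.80 and 10.96 with PicoPure and 10.91, 11.02 and 11.16 with RNeasy (difference -0.32 ± 0.10, limma, adjusted p = 0.210). Psmd1 had 11.90, 11.97 and 12.00, against 11.90, 11.93 and 11.91 with PicoPure and 11.71, 11.67 and 11.76 with RNeasy, and differed by 0.15 ± 0.05 (limma, adjusted p = 0.264). Direct lysis overlapped purified RNA for both of these genes.

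**Figure D3:**
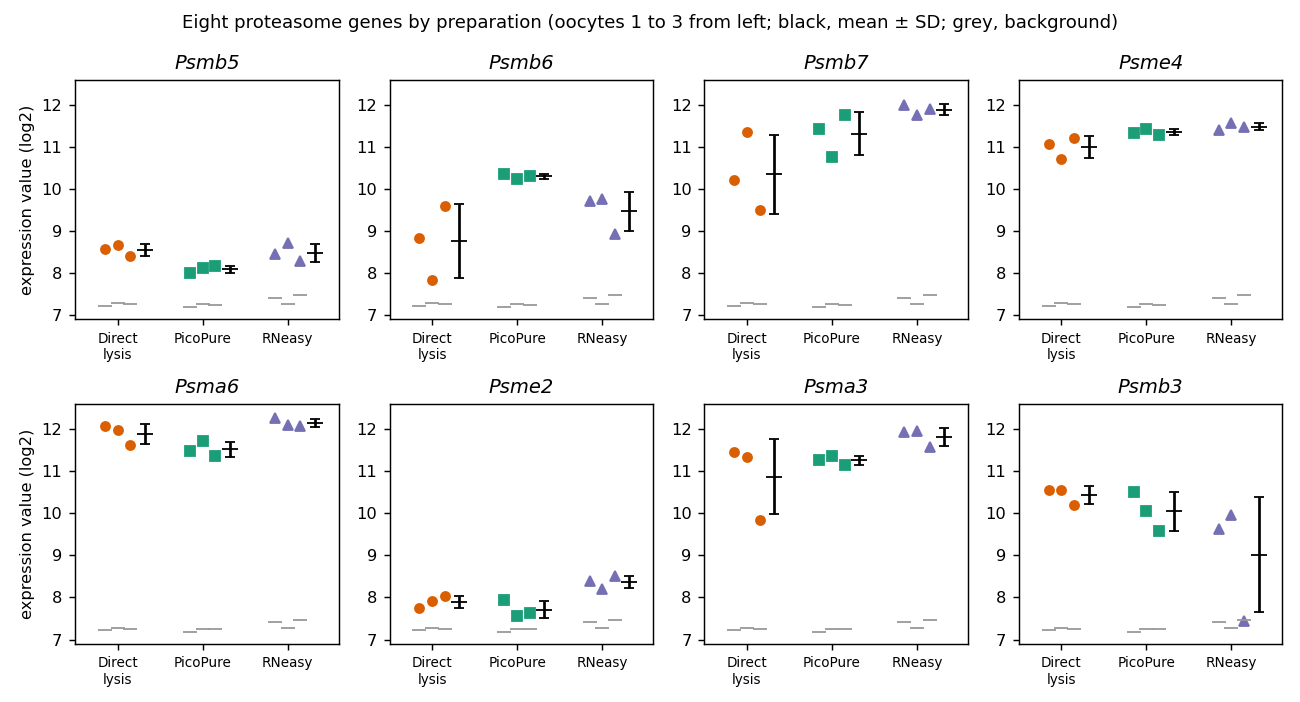
Expression values (log2) of 8 genes in the 9 oocytes, with oocytes 1 to 3 of each preparation from left, the mean ± SD (n = 3) in black and the background level of each array in grey. The Psmb6 crude lysates (7.84 to 9.60) lie below the PicoPure samples (10.23 to 10.36), the Psma3 value of direct lysis oocyte 3 (9.85) below its other samples, and the Psmb3 value of RNeasy oocyte 3 (7.45) at background.

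PicoPure against RNeasy compared the column kits. Again no proteasome gene was called (limma, 0 of 50 genes, smallest adjusted p = 0.234), where 0.0602% of all genes were called. At an unadjusted p under 0.05, 9 genes (18%) were lower and 2 (4%) higher with PicoPure, beside 3.36% and 4.62% of all genes. Among the 41 genes above background on all arrays 8 (19.5%) were lower and 2 (4.88%) higher, beside 3.59% and 8.91% of all 8598 such genes. PicoPure lay wholly below RNeasy for 10 genes (20%) and wholly above for 3 (6%), beside 7.03% and 6.92% of all genes and 6.73% and 13.0% of detected ones. The difference was below 0 for 37 of 50 genes (74%), where 58.5% of all genes and 46.4% of the detected ones were below 0, and above 0 for 13 (26%), where 41.5% and 53.6% were. The median was -0.13 over the 50 genes and -0.03 over all genes. Without RNeasy oocyte 3, 38 differences were below 0 and 6 genes were lower at an unadjusted p under 0.05. The counts below 0 were chosen after seeing the data. The background level itself was higher on RNeasy arrays 1 and 3 (7.41 and 7.47) than on any PicoPure array (7.19 to 7.26), and its part in these values was not tested. In simulated data 72% of genes changed by 1 log2 unit were called between the kits and 94% of those changed by 2. These too were drawn from all genes, with the same limit for genes of large spread.

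**Figure D4:**
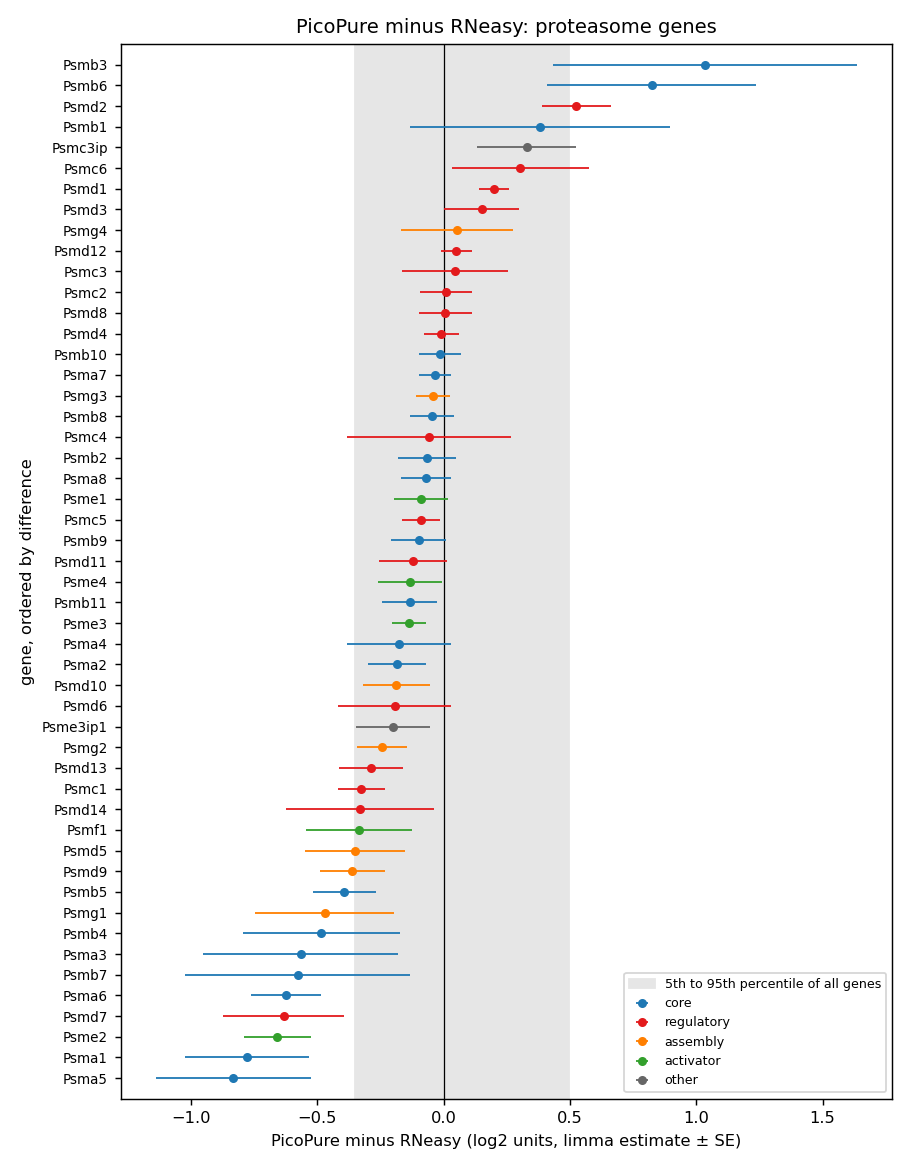
Difference between PicoPure (3 oocytes) and RNeasy (3 oocytes) for each gene in log2 units, with bars for the SE of the limma estimate and colours for the part of the proteasome. The grey band holds the 5th to 95th percentile of all genes (-0.35 to 0.50), and 37 of the 50 points lie below 0, with Psma5 (-0.83) and Psma1 (-0.78) lowest and Psmb3 (1.03) highest.

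The lowest differences between the kits were those of Psma5 and Psma1 in the alpha ring. All 7 standard alpha genes were lower on average with PicoPure, with a median difference of -0.57 and a range of -0.83 to -0.03, and none was called. This count too was chosen after seeing the data. Psma6 had 11.48, 11.72 and 11.38 with PicoPure, against 12.27, 12.10 and 12.08 with RNeasy, a full separation, while the crude lysates had 12.07, 11.98 and 11.63. Its difference was -0.63 ± 0.14 (limma, adjusted p = 0.301). Psma1 had 11.06, 10.66 and 10.41 with PicoPure, against 11.61, 11.58 and 11.29 with RNeasy (difference -0.78 ± 0.25, limma, adjusted p = 0.473). Psma1 also separated the kits, and the crude lysates, at 10.65, 10.60 and 11.39, overlapped both.

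Psma5 had 9.77, 10.16 and 11.02 with PicoPure, against 10.96, 10.96 and 11.52 with RNeasy. Here the kits overlapped, and the difference was -0.83 ± 0.31 (limma, adjusted p = 0.554). RefSeq lists a pseudogene of Psma5 as well, and a second row of the gene differed by -0.72. Psma3 had 11.26, 11.37 and 11.15 with PicoPure, against 11.95, 11.96 and 11.58 with RNeasy, and the kits did not overlap (difference -0.57 ± 0.39, limma, adjusted p = 0.771). The SD of Psma3 was 0.90 within direct lysis, 0.11 within PicoPure and 0.21 within RNeasy (n = 3 each), and direct lysis oocyte 3 had 9.85 where the others had 11.46 and 11.33. All 3 rows with the Psma3 symbol showed that low value, with 9.85, 9.57 and 9.67 in that oocyte and no other array below 11.15, 10.95 and 10.90 in those rows. For this gene and for Psma5, Psmb3, Psmc1 and Psmd2, rows beyond the first may read near copies, so they are not certain to be repeat readings of the gene.

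Psme2 had the smallest p between the kits. It had 7.95, 7.56 and 7.63 with PicoPure, against 8.39, 8.21 and 8.50 with RNeasy, without overlap, and 7.74, 7.91 and 8.04 with direct lysis. The difference was -0.66 ± 0.13 (limma, adjusted p = 0.234). These values are close to background, whose level was up to 7.47 on the RNeasy arrays. Its partner Psme1 differed by -0.09 ± 0.11, and the kits overlapped.

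Psmc1, an ATPase of the base, had 11.68, 11.64 and 11.43 with PicoPure, against 11.92, 12.00 and 11.81 with RNeasy (difference -0.33 ± 0.09, limma, adjusted p = 0.419). The kits did not overlap for Psmc1, and its second row differed by -0.20. The remaining genes wholly lower with PicoPure were Psmb5 (-0.39), the lid subunit Psmd7 (-0.63, or -0.40 without PicoPure oocyte 3) and Psmf1 (-0.34), with Psma8 and Psmd13, which were above background on no array.

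Higher means with PicoPure were found for 13 genes. The largest was that of Psmb3, at 1.03 ± 0.60 (limma, adjusted p = 0.729), with overlap between the kits, and it was 0.25 without RNeasy oocyte 3. Psmd2 had 10.87, 11.17 and 11.39 with PicoPure, against 10.58, 10.71 and 10.56 with RNeasy (difference 0.53 ± 0.14, limma, adjusted p = 0.362). A second row of Psmd2 differed by only 0.11. Psmd1 was higher by 0.20 ± 0.06 (limma, adjusted p = 0.442), and Psmb6 by 0.82 ± 0.41 (limma, adjusted p = 0.674), and PicoPure lay wholly above RNeasy for Psmd2, Psmd1 and Psmb6. The median difference was -0.14 for the 19 core genes, where 16 were below 0, and -0.01 for the 17 regulatory genes, where 9 were. Whether core and regulatory genes differ was not tested.

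The core and regulatory genes were also counted by oocyte, although none was called between preparations. This count was not among the results planned beforehand. Of 13 core genes above background on all arrays, 6, 4 and 4 exceeded their own 9-array mean in the crude lysates. In the PicoPure samples 6, 4 and 5 did so, against 11, 12 and 11 in the RNeasy samples. Of 16 regulatory genes above background on all arrays, 10, 8 and 8 exceeded their own mean in the crude lysates. In the PicoPure samples 8, 8 and 5 did so, against 9, 6 and 10 in the RNeasy samples. Among all 8598 detected genes the shares above their own mean were 44.9%, 46.6% and 53.7% with direct lysis and 53.8%, 56.2% and 57.9% with PicoPure, against 52.6%, 47.1% and 48.8% with RNeasy. For the 7 alpha ring genes the median deviation from that mean was 0.08, -0.07 and -0.23 with direct lysis and -0.06, -0.14 and -0.12 with PicoPure, against 0.36, 0.24 and 0.26 with RNeasy. For the 6 detected beta ring genes it was -0.14, -0.03 and -0.09 with direct lysis and 0.24, -0.06 and 0.01 with PicoPure, against 0.07, 0.30 and 0.24 with RNeasy, so PicoPure oocyte 1 was as high as RNeasy oocyte 3. For the 6 ATPases it was 0.05, -0.03 and 0.08 with direct lysis and -0.002, 0.02 and -0.19 with PicoPure, against 0.08, -0.06 and 0.09 with RNeasy, which overlap. For the 7 detected lid genes it was 0.04, 0.11 and -0.10 with direct lysis and -0.004, -0.04 and -0.11 with PicoPure, against 0.010, 0.004 and 0.013 with RNeasy. Over all 8598 detected genes the array medians stayed between -0.02 and 0.02. These deviations share a mean over the same 9 arrays and are given as a description.

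**Figure D5:**
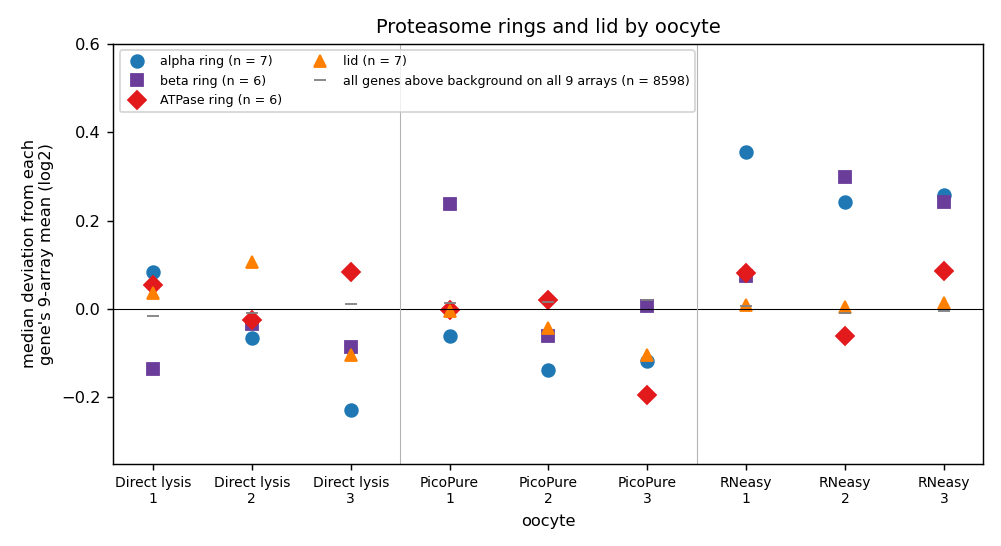
Median deviation (log2) from each gene's mean over 9 arrays, by oocyte, for the detected genes of the alpha ring (n = 7), beta ring (n = 6), ATPase ring (n = 6) and lid (n = 7) and for all detected genes (n = 8598). The alpha ring lies at 0.24 to 0.36 in the RNeasy oocytes and at or below 0.08 in the others, while the lid stays between -0.11 and 0.11.

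No proteasome gene was called over the 3 preparations together (limma's moderated F, 0 of 50 genes, smallest adjusted p = 0.139), where 0.637% of all genes were called. At an unadjusted p under 0.05 there were 14 (28%), beside 12.8% of all genes. Among the 41 genes above background on all arrays there were 13 (31.7%), beside 17.7% of all such genes.

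Spread ranged widely within the family. The SD over 9 oocytes, which includes differences between preparations, had a median of 0.26 among the 41 detected genes and 0.22 among all detected genes, and 23 of the 41 lay above 0.22. Within preparations the order turned, with a median residual SD of 0.175 among the 41 and 0.193 among all detected genes, and 17 of the 41 lay above 0.193. The largest SD over 9 oocytes belonged to Psmb7 (0.86), Psmb6 (0.83), Psma3 (0.62), Psma5 (0.55) and Psma1 (0.46). Within preparations it belonged to Psmb7 (0.62), Psmb6 (0.58), Psma3 (0.54), the ATPase Psmc4 (0.45) and Psmb4 (0.43). The smallest SD over 9 oocytes belonged to Psma7 (0.05), Psmg3 (0.05) and Psmd4 (0.06). Psmb3, above background on 8 arrays, had 10.56, 10.55 and 10.19 with direct lysis, 10.51, 10.05 and 9.58 with PicoPure and 9.63, 9.96 and 7.45 with RNeasy. Its SD of 0.97 rests on RNeasy oocyte 3, which was at the background level there and, at 7.48, in a second row of the gene. In that second row RNeasy oocyte 1 was low as well (7.68), and RNeasy oocyte 2 was the highest of the 9 (9.57). Direct lysis differed from purified RNA by 0.91 in the first row of Psmb3, or 0.51 without RNeasy oocyte 3, and by 0.34 in the second.

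Genes that serve the proteasome from outside were taken from a list of 32, of which 22 had a row of their own. They include ubiquitin shuttles, substrate extractors, the transcription factors Nfe2l1 and Nfe2l2 and the core maturation factor Pomp. Of the 22, 21 were above background on all arrays. None was called in either comparison (limma). At an unadjusted p under 0.05, 3 (13.6%) were lower with direct lysis and 0 higher. Of all genes 7.01% were lower and 7.18% higher, and of detected genes 10.4% and 6.14%. The share in both directions together (13.6%) was near that of all genes (14.2%) and of detected genes (16.5%). Between the kits 3 (13.6%) were higher with PicoPure and 0 lower. Of all genes 4.62% were higher and 3.36% lower, and of detected genes 8.91% and 3.59%. The median differences were -0.04 and 0.03.

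The 3 genes with such a p for direct lysis were Ngly1, the enzyme that activates Nfe2l1 by removing its sugars, and Nploc4 and Ufd1, partners of the extractor Vcp. Ufd1 had 8.28, 9.46 and 7.64 with direct lysis, against 9.85, 9.38 and 9.38 with PicoPure and 10.14, 9.47 and 8.93 with RNeasy, with overlap (difference -1.07, limma, adjusted p = 0.299). Nploc4 had 9.85, 10.55 and 9.81 with direct lysis, against 10.35, 10.51 and 10.50 with PicoPure and 10.63, 10.60 and 10.42 with RNeasy (difference -0.43, limma, adjusted p = 0.299). For both partners oocyte 2 lay within the purified range and the other crude lysates below it. Without direct lysis oocyte 2, Nploc4 was called at a difference of -0.68 (limma, adjusted p = 0.0284). Ngly1 differed by -0.27 (limma, adjusted p = 0.285) and the shuttle Ubqln2, whose crude lysates lay below every purified sample, by -0.13 (limma, adjusted p = 0.354).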

How the data were processed

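RNA of 9 single oocytes was measured on arrays. The table the authors deposited holds normalized log2 values for 35556 rows, with array medians of 7.12 to 7.24. Per the submitters' processing notes, the tools were GCRMA, GCOS and Affymetrix Expression Console, with no version or role stated. The log2 scale was read from the values. No scanner files were used, so normalization could not be repeated. Which genome build the authors used is not stated in these sources.

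Rows with 1 gene symbol in the platform table (21789; 1621 had several and 12146 none) were reduced to the row with the highest mean per gene, and 5 of the 50 proteasome genes had several rows. All 50 matched RefSeq by Entrez identifier. Groups came from the titles. The test was limma's (version 3.58.1, R 4.3.3; lmFit, eBayes, 1 fit over 9 arrays and 3 groups, 6 residual degrees of freedom), two-sided, with Benjamini-Hochberg adjustment over 19938 genes and a threshold of 0.05. Purified RNA is the mean of both kits. The code was tested on simulated data with 200 changed genes. Genes were named by rule: the 6 smallest p for direct lysis and the 4 smallest for the kits, the 5 largest and 3 smallest SD, incomplete detection, a fixed panel, and the 4 smallest p for direct lysis among the genes that serve the proteasome; genes named for wholly separate arrays were chosen after their values were seen. The members and lists were chosen with earlier results of these data known. Precision is limited by how few arrays there are.

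Alternatives were a further quantile normalization, median centring, values raised to background, a filter on level, the mean of all rows, trend and robust settings, a replicate block, leaving out each array, and other background percentiles (90th and 99th). Same-numbered oocytes of different preparations deviated together weakly or not at all (correlations of -0.068 to 0.115), which cannot exclude a shared mouse or batch.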

Additional observations from a re-analysis of the deposited data

Results flagged for a closer look

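In each gene, the lowest and highest of the 6 purified oocytes were set against the others, and the gap to the nearest, as a share of the range, was compared with Dixon's 95% critical value; chance passes it in about 1 in 20 groups. It was passed in 8 of 50 genes (16%), beside 17.7% of all genes, so the number says nothing particular about the proteasome. The 6 oocytes join both kits. In Psmb3, RNeasy oocyte 3 had 7.45 and the others at least 9.58. In Psmb4, PicoPure oocyte 3 had 9.70 and the others at least 10.74. In the ATPase gene Psmc6, RNeasy oocyte 1 had 10.25 and the others at least 11.00. In Psmb1, PicoPure oocyte 2 had 8.45 and the others at most 7.44. In the lid gene Psmd3, the same oocyte had 8.71 and the others at most 8.27. In the lid gene Psmd11, RNeasy oocyte 1 had 10.99 and the others at most 10.76. In Psme3ip1, RNeasy oocyte 3 had 11.78 and the others at most 11.40. In Psmb8, below background throughout, RNeasy oocyte 1 had 6.68.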

How the results depend on the processing

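No proteasome gene was called in any of 16 alternatives of the 3 tests (limma). At an unadjusted p under 0.05 there were 6 to 14 for direct lysis against purified RNA and 8 to 17 for PicoPure against RNeasy, and the smallest adjusted p was 0.0579 (Psmb7, without direct lysis replicate 2). The number above background on all arrays was 34 to 43. The median difference was -0.05 to 0.04 for direct lysis and -0.16 to -0.09 for the kits, where all 7 standard alpha genes stayed below 0. The 10 differences followed (6 for direct lysis, 4 for the kits) kept their sign in all 16, but 3 moved by over 1.5 times with an array left out (Psmb6, Psmb7 and Psme4, values given above), as did Psmb3 and Psmd7, followed after seeing the data. Psmb2 was -0.19 with quantile normalization and Psmd2 0.32 with the mean of all rows. The genes lower with PicoPure at an unadjusted p, counted after seeing the data, were 6 to 10 with an array left out and 15 with values raised to background, where floors that differ between arrays put 8900 of all genes under that p.

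The counts over all genes moved more. For direct lysis 201 genes were called, 24, 67 and 111 without RNeasy replicates 1, 2 and 3, 61, 43 and 116 without PicoPure replicates 1, 2 and 3, and 24 to 232 over all 9 omissions. For the kits the count of 12 became 0 to 15 with an array left out and 0 with trend and robust settings (1595 at an unadjusted p). For the F test 127 became 4 to 96 with an array left out and 81 with quantile normalization. With the replicate block the counts were 25, 0 (1549 at an unadjusted p) and 14. Of 9 same-numbered pairs 1 correlated above 0.1, and an array matched its own number best in 8 of 18 cases. Weak correlations between single cells cannot exclude a shared mouse or batch, so whether the numbers pair the oocytes is not known. In the list of genes that serve the proteasome, 0 to 1 were called with an array left out. The cause of these moves was not tested.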

Other observations

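A row shared by Psme2 and its near copy Psme2b was not used above. It lay at 6.48, 6.39 and 6.67 with direct lysis, at 6.61, 6.25 and 6.39 with PicoPure and at 6.85, 6.56 and 7.83 with RNeasy, and only RNeasy oocyte 3 exceeded the background of its array.

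The 2 genes that share the symbol stem without being subunits were detected in every oocyte. Psmc3ip, which aids the pairing of homologous chromosomes in meiosis, had 11.36, 11.03 and 10.68 with direct lysis, against 11.24, 10.98 and 11.25 with PicoPure and 10.92, 11.04 and 10.52 with RNeasy. Psme3ip1, a partner of the nuclear activator Psme3, had 11.42, 11.05 and 11.41 with direct lysis, against 11.36, 11.20 and 11.35 with PicoPure and 11.40, 11.34 and 11.78 with RNeasy. The preparations overlapped for both, and neither was called in any comparison (limma).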
